A study of Mus musculus with 12 samples.

Results

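Gm8834, Gstm2-ps1, Gm7208 and Cyp2c53-ps are 4 mouse loci annotated as pseudogenes of detoxification enzyme families, out of 26031 gene identifiers with counts in some liver library of this study. They were chosen by symbol, for large changes with the compound PCN or with diet and for possible sharing of reads with the working genes they resemble, so their values in those contrasts are given as a description with no test. All 4 were listed for all 12 libraries, and Gm7208 had 0 reads in 1 of them. Liver RNA of C57BL/6N mice was sequenced in 4 groups of 3 samples each. The first group received a high-fat diet for 15 weeks from 6 weeks of age and pregnenolone 16α-carbonitrile (PCN) intraperitoneally at 50 mg/kg once daily for 4 days (replicates 5, 11 and 27). The second received the same diet and injections of vehicle, 30% DMSO in corn oil (replicates 15, 23 and 55). The third received the diet and no injection (replicates 4, 30 and 38), and the fourth regular chow for the same 15 weeks (replicates 8, 17 and 19). The labels do not give the sex of the mice or the DMSO share of the PCN injections.

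In rodents PCN is a ligand of PXR, the pregnane X receptor, through which hepatocytes raise the transcription of drug-metabolising enzymes. The mu-class glutathione transferases (Gstm genes) join glutathione to electrophiles, the carboxylesterases of the Ces2 family cleave ester drugs and lipids, and the cytochromes P450 of the Cyp2c family oxidise drugs and fatty acids. A processed pseudogene is a copy of a spliced messenger RNA inserted back into the genome without introns, and an unprocessed one is a duplicated gene that kept its exons and introns but lost its function. Both kinds can resemble a working gene so closely that a short sequencing read fits either.

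Complete counts were at hand for the vehicle and uninjected high-fat-diet libraries, whose totals ran from 19773547 to 22039805 with vehicle and from 7466378 (replicate 38) to 38161486 with high-fat diet. The tables that held PCN and chow libraries listed only genes called by the authors, and 2227 genes had counts in all 12 libraries. Normalized counts are raw counts divided by 1 size factor per library, recovered from the deposited means. Vehicle replicate 23 resembled the uninjected libraries (median Pearson's r 0.985 over 10559 genes) more than its own group (0.969). Vehicle replicate 55 and high-fat-diet replicate 38 were the least like the opposite group, at 0.946 and 0.942. Of the 26015 genes in the complete table, 3298 (12.7%) were annotated as pseudogenes in GENCODE M21. By the authors' deposited mean count, Gstm2-ps1 was 13th and Gm8834 was 19th among those pseudogenes, of which 84 had a mean of 50 or more.

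The 4 loci lie on 4 chromosomes of the GRCm38 build. Gm8834 (ENSMUSG00000110935) is a processed pseudogene of 565 bases in 1 exon at chr10:34898256-34898820 on the plus strand, inside the span of another pseudogene, Gm18252, with which it shares 0 exon bases. Gstm2-ps1 (ENSMUSG00000107369) is a processed pseudogene of 657 bases in 1 exon at chr5:116632908-116633564 on the minus strand. Each holds in 1 exon a sequence that Gstm3 and Gstm1 carry in 8 exons. Neither stands near the Gstm genes themselves, which lie together on chromosome 3. Gm7208 (ENSMUSG00000110568) is a transcribed unprocessed pseudogene at chr8:104675536-104682211 on the minus strand, with 12 exons in the transcript compared here, as in Ces2a. It neighbours the Ces2 cluster, where Ces2a lies on the plus strand at chr8:104734003-104741634. Cyp2c53-ps (ENSMUSG00000093610) is a transcribed unprocessed pseudogene at chr19:39229254-39274985 on the plus strand, within the Cyp2c cluster. Its span overlaps that of Cyp2c29 on the same strand, and 142 exon bases belong to both genes. The compared transcripts of Cyp2c53-ps and Cyp2c29 have 9 exons each.

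The start of the Gstm pseudogenes is shown beside the coding sequences of Gstm3 and Gstm1, because these are the 240 bases with the most positions that tell the Gm8834 and Gstm3 pair from the Gstm2-ps1 and Gstm1 pair. All 4 sequences are from the GENCODE M21 transcripts of GRCm38, 5′ to 3′, bases 1 to 240 of the pseudogene transcript or of the coding sequence. Capitals mark the 34 positions at which the 4 are not all the same.
Gm8834: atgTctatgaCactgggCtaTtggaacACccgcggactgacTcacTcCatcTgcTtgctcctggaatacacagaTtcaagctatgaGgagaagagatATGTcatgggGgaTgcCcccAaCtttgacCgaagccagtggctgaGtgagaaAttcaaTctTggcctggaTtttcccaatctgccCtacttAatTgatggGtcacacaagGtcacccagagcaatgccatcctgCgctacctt
Gstm3: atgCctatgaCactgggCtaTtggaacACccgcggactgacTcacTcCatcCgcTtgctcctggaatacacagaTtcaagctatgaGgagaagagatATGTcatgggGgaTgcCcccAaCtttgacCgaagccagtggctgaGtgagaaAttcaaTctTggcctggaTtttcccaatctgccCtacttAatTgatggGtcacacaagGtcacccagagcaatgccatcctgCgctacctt
Gstm2-ps1: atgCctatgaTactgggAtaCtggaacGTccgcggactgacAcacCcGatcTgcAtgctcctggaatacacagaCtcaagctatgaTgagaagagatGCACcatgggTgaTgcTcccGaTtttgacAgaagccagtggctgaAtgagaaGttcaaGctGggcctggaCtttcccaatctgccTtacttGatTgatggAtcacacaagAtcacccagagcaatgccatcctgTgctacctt
Gstm1: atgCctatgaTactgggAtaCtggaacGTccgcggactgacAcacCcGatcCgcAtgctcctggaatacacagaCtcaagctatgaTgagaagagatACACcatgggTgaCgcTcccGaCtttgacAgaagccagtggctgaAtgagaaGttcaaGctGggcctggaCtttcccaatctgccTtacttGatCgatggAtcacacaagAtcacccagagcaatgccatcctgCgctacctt
At 27 of the 34 positions Gm8834 had the base of Gstm3 and Gstm2-ps1 the base of Gstm1. Within these 240 bases Gm8834 differed from Gstm3 at 2 positions, and Gstm2-ps1 differed from Gstm1 at 6.

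Over its whole length Gm8834 was most like Gstm3, with 97.9% identity over 567 aligned columns, 10 mismatches and 2 gap bases, against 89.8% for Gstm1. Gstm2-ps1 was most like Gstm1, with 97.9% identity over 657 aligned bases and 14 mismatches, and not like the Gstm2 of its name (85.6%). Of 565 positions that all 4 sequences share, 500 (88.5%) were the same in all 4. The longest stretch without a difference was 189 bases between Gm8834 and Gstm3 and 127 bases between Gstm2-ps1 and Gstm1. Of all 75-base windows of Gm8834, 25.9% occurred letter for letter in a Gstm3 transcript, and 36.5% in a transcript of any annotated gene but Gm8834 itself, Gstm3 included. For Gstm2-ps1, 19.9% of such windows occurred in Gstm1, and 27.6% in any gene but Gstm2-ps1 itself, Gstm1 included. The read length and the handling of reads with several matches are not given in the sources used here.

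Gm7208 and Cyp2c53-ps are shown beside the family gene they resemble most, over the gap-free 200 bases with the fewest differences: bases 78 to 277 of the Gm7208 transcript with 81 to 280 of the Ces2a coding sequence, and 377 to 576 of the Cyp2c53-ps transcript with 379 to 578 of the Cyp2c29 coding sequence. Capitals mark the bases at which the pair differ, at 5 positions for Gm7208 and Ces2a and at 18 for Cyp2c53-ps and Cyp2c29.
Gm7208: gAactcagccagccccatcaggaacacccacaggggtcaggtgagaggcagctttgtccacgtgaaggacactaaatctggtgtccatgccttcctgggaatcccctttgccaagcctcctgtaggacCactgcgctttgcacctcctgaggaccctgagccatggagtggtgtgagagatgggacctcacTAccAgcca
Ces2a: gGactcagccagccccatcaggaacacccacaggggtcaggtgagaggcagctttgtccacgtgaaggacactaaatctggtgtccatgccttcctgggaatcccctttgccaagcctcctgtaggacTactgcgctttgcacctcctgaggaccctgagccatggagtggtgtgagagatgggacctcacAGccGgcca
Cyp2c53-ps: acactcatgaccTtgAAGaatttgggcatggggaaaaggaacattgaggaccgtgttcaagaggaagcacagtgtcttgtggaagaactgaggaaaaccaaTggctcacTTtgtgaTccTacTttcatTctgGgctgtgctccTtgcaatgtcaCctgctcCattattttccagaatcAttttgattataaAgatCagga
Cyp2c29: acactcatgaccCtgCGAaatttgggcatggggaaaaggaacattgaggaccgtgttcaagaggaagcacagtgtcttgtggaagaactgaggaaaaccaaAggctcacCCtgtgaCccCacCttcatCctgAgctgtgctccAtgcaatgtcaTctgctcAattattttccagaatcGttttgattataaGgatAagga
Over the transcript Gm7208 was 91.9% identical to Ces2a, gaps included, and 80.7% to Ces2e, the gene with the next most matching bases. Cyp2c53-ps was 79.7% identical to Cyp2c29, close to its 79.0% with Cyp2c39 and 78.3% with Cyp2c37. Of 75-base windows, 9.79% of Gm7208 occurred in Ces2a and in no other gene, and 5.62% of Cyp2c53-ps occurred in some Cyp2c29 transcript. Cyp2c53-ps and Cyp2c29 have 142 exon bases of the genome in common, so this share does not measure likeness of a copy alone. Of 100-base windows of Cyp2c53-ps, 3.2% occurred in Cyp2c29, although the longest exact run with the compared Cyp2c29 transcript was 83 bases. The profile of shared bases covers only the coding sequence of each compared family transcript, so it does not show all stretches shared with Cyp2c29.

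**Figure D1:**
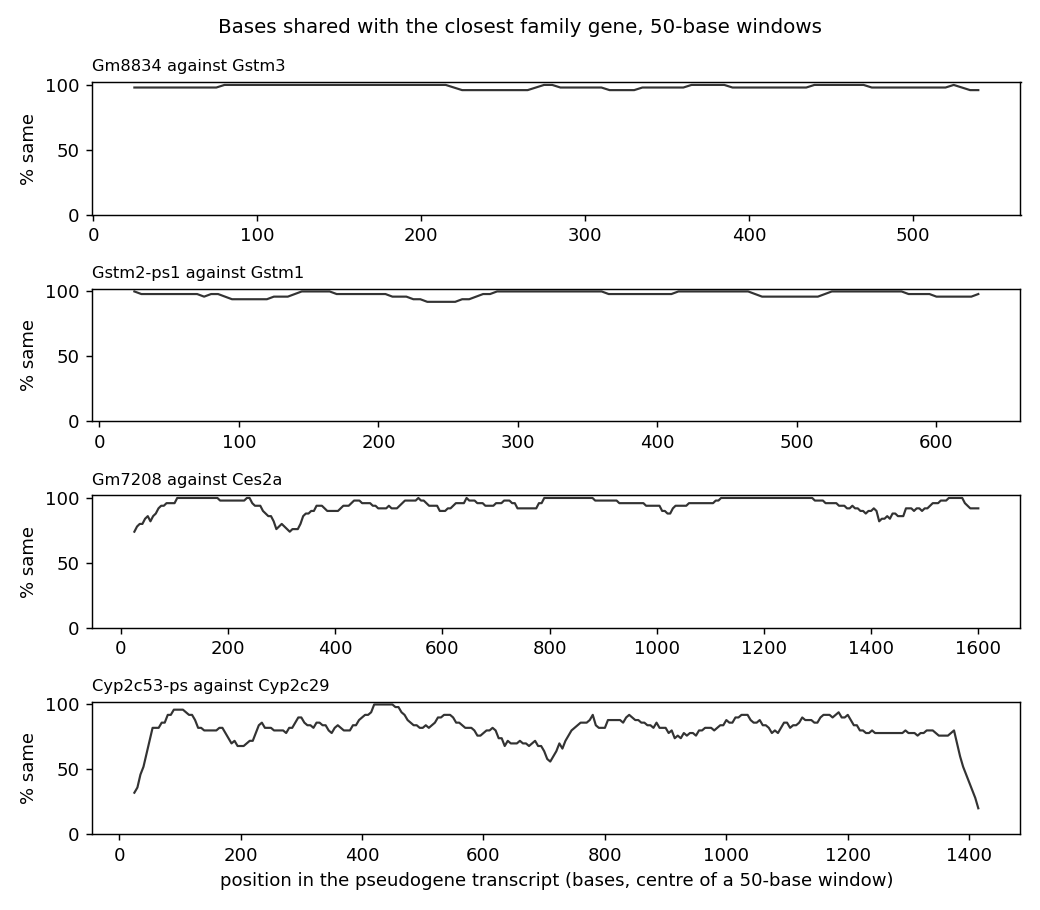
Percent of bases shared with the closest family gene (y axis) in 50-base windows along each pseudogene transcript (x axis, bases). The lowest window was at 96% for Gm8834, 92% for Gstm2-ps1, 74% for Gm7208 and 20% for Cyp2c53-ps, with medians of 98%, 98%, 96% and 82%.

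Gm8834, the copy of Gstm3, had 3830, 2225 and 4257 normalized counts in PCN livers, 199, 256 and 246 in vehicle livers, 415, 398 and 499 in uninjected high-fat-diet livers and 393, 258 and 294 in chow livers. The PCN libraries lay far above all 9 others, and replicate 11 was the lowest of them. The PCN mean was 14.7-fold the vehicle mean, 7.86-fold the high-fat-diet mean and 10.9-fold the chow mean. The ratio to vehicle was 15.4 without vehicle replicate 23 and 15.1 without replicate 55, and the ratio to high-fat diet was 8.45 without its replicate 38. Below PCN the order was high-fat diet (438 ± 54.3, SD, n = 3), chow (315 ± 70.0) and vehicle (234 ± 30.2), with neighbouring ranges that lay close without overlapping. The raw counts behind these values were 7018, 1321 and 4092 with PCN, and 202 to 837 in the other 9 libraries.

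Gstm2-ps1, the copy of Gstm1, had 6430, 3362 and 7310 normalized counts in PCN livers, 358, 434 and 252 in vehicle livers, 599, 514 and 748 in high-fat-diet livers and 550, 388 and 437 in chow livers. The same PCN replicate was again the lowest of its group, and the PCN libraries again stood apart from all others. The PCN mean was 16.4-fold the vehicle mean, 9.19-fold the high-fat-diet mean and 12.4-fold the chow mean. The ratio to vehicle was 18.7 without vehicle replicate 23 and 14.4 without replicate 55, and the ratio to high-fat diet was 10.3 without its replicate 38. Below PCN the order was high-fat diet (620 ± 119, SD, n = 3), chow (458 ± 83.0) and vehicle (348 ± 91.3). High-fat diet overlapped chow and chow overlapped vehicle, and the vehicle range lay below that of high-fat diet.

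Gm7208, the copy of the carboxylesterase Ces2a, had 179.6, 94.3 and 124 normalized counts in PCN livers, from 329, 56 and 119 reads. In vehicle livers it had 7, 1 and 1 reads, in high-fat-diet livers 11, 10 and 0, and in chow livers 10, 10 and 19. It was therefore close to the detection floor without PCN: in high-fat-diet replicate 38, where no read was counted, a count of 0 allows up to 6.66 normalized counts. Pooled over the group, 504 reads with PCN stood against 9 with vehicle, a ratio of 50.4 (exact 95% interval 26.3 to 111, counting error only). That interval leaves out the spread between libraries and the choice of Gm7208 by this contrast, so it is no test of the difference. The ratio of group means was 46.1 between PCN and vehicle, 29.2 between PCN and high-fat diet and 9.37 between PCN and chow. Without vehicle replicate 15, which held 7 of the 9 vehicle reads, the ratio to vehicle was 132. Without high-fat-diet replicate 30 the ratio to that group was 48.6. Chow livers, at 14.1 ± 6.29 normalized counts (SD, n = 3), lay above the ranges of both vehicle (2.87 ± 3.24) and high-fat diet (4.54 ± 4.15).

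Cyp2c53-ps did not share the PCN pattern of the other 3. It had 45.3, 23.6 and 35.4 normalized counts in PCN livers, 197.5, 47.6 and 30.5 in vehicle livers, 8.93, 31.8 and 4.44 in high-fat-diet livers and 84.0, 189 and 158 in chow livers. Chow livers had the highest mean, and vehicle replicate 15 was the 1 other library at their level. PCN overlapped both vehicle and high-fat diet, and it lay below chow. The high-fat-diet mean was 9.54-fold lower than the chow mean, and the PCN mean was 4.13-fold lower than the chow mean. The high-fat-diet values came from 18, 39 and 2 reads, and the 2 reads of replicate 38 lay below the floor of 3 counts. The PCN mean was 0.378 of the vehicle mean, and 0.890 of it without vehicle replicate 15. Against uninjected high-fat diet the PCN mean was 2.31-fold higher, and 5.20-fold higher without high-fat-diet replicate 30. The high-fat-diet to chow ratio of 0.105 was 0.0465 without high-fat-diet replicate 30.

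**Figure D2:**
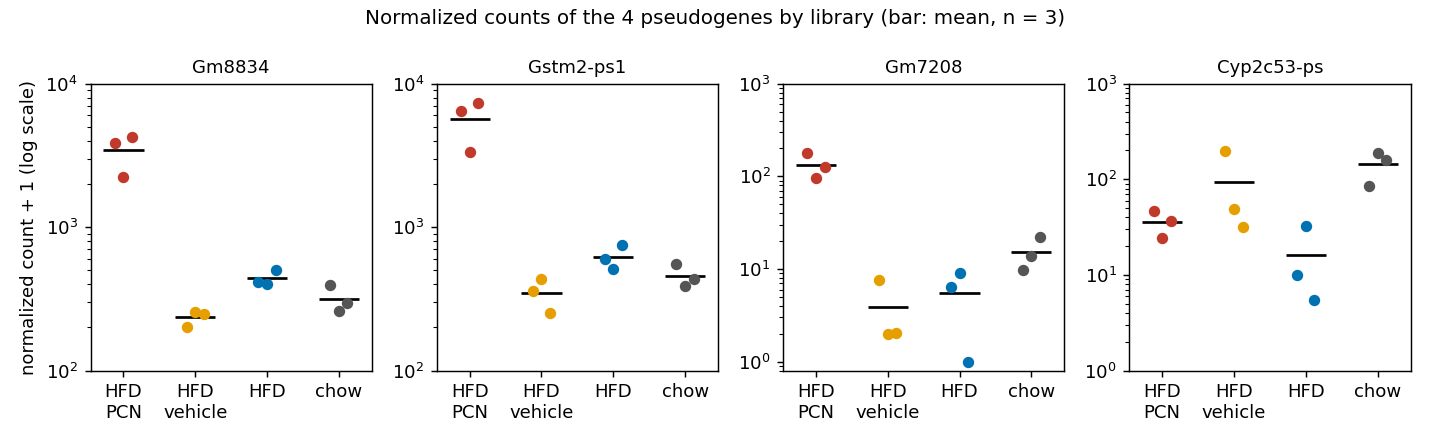
Normalized counts plus 1 (log y axis) of the 4 pseudogenes in the PCN, vehicle, high-fat-diet and chow groups, 1 point per library and a bar at the mean of 3. The PCN points lie above all others for Gm8834, Gstm2-ps1 and Gm7208, and for Cyp2c53-ps they overlap those of vehicle and high-fat diet and lie below those of chow.

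In the authors' deposited tables, PCN against vehicle had 442 calls among about 25882 genes tested (1.71%, adjusted p under 0.05), and these held Gm8834, Gstm2-ps1 and Gm7208. The same 3 were called in PCN against high-fat diet, where 3.15% of genes were called. All 4 were called in PCN against chow, where 8.1% of genes were called, with Cyp2c53-ps in the lower direction. Cyp2c53-ps was also called lower in high-fat diet against chow, where 4.85% of genes were called. These comparisons share libraries and chose the members, so nothing is read from the counts. Among the 442 calls of PCN against vehicle were 15 pseudogenes (3.39%), 8 higher and 7 lower. Pseudogenes made up 12.7% of the genes in the complete table, where 84 of 3298 had a mean of 50 or more.

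The family genes were next set beside their copies. Among the 7 mu-class transferase genes, 6 rose with PCN against vehicle in the authors' deposited table (Gstm1 to Gstm6) and 0 fell. Among 8 carboxylesterase genes 3 rose (Ces2a, Ces2c and Ces2g) and 0 fell, and among 16 measured Cyp2c genes 2 rose (Cyp2c29 and Cyp2c55) and 0 fell. That made 11 of 31 measured family genes (35.5%), against 1.07% of all genes tested called higher and 0.641% called lower. The edgeR quasi-likelihood test on the listed counts, adjusted over the number of genes tested, kept 4 of the 11 (Ces2a, Gstm1, Gstm3 and Cyp2c55), against 0.058% of all genes. The other comparisons, which share their groups with this one, gave family counts of their own. Of the 31 genes, 12 rose and 1 (Ces2e) fell with PCN against high-fat diet, where 1.9% of all genes were called higher and 1.26% lower. There edgeR kept 5, and 137 of all 809 listed genes. With PCN against chow 12 rose and 3 fell (Ces2e, Cyp2c23 and Cyp2c67), where 4.43% of all genes were called higher and 3.67% lower. In that comparison edgeR kept 9, and 778 of all 2032 listed genes. With vehicle against chow 0 rose and 7 fell, where 3.1% of all genes were called, 1.72% higher and 1.38% lower, and edgeR kept Cyp2c55 alone (0.349% of all genes). With high-fat diet against chow 3 rose (Ces2g, Gstm2 and Gstm3) and 7 fell, where 2.81% of all genes were called higher and 2.05% lower.

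The size of the change differed widely among the transferases. By ratio of group means between PCN and vehicle, Gstm2 was 15.8-fold higher, Gstm1 8.23-fold, Gstm4 3.05-fold, Gstm6 3.02-fold and Gstm5 2.04-fold. Gstm3, the gene Gm8834 copies, had 60663 normalized counts at most and 14542 at least with PCN, against 65.1 to 225 with vehicle. By ratio of group means Gstm3 was 315-fold higher. By the same ratio Gm8834 (14.7-fold) and Gstm2-ps1 (16.4-fold) lay close to Gstm2 in the size of their difference, and between Gstm1 and Gstm3. The authors' deposited log2 changes gave another order. They were 3.39 for Gm8834, 3.36 for Gstm2-ps1, 2.71 for Gstm3, 2.66 for Gstm1 and 1.91 for Gstm2. Among the carboxylesterases Ces2c was 3.46-fold and Ces2g 2.01-fold higher, and Ces2e had 3321 ± 789 normalized counts with PCN and 3356 ± 345 with vehicle (SD, n = 3 each).

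Without PCN, Gm8834 had more reads than Gstm3, the gene it copies, in 8 of 9 libraries; in high-fat-diet replicate 38 it had 225 reads and Gstm3 had 245. Per kilobase of exon, Gm8834 averaged 6084 normalized counts in PCN livers, 414 in vehicle livers, 774 in high-fat-diet livers and 557 in chow livers. Gstm3 averaged 31967 per kilobase in PCN livers, 101 in vehicle livers, 275 in high-fat-diet livers and 103 in chow livers. Gstm1 averaged 34377 per kilobase in PCN livers, 4176 in vehicle livers, 7850 in high-fat-diet livers and 6561 in chow livers, and Gstm2-ps1 averaged 8677, 530, 944 and 697 in the same order. On this scale Gm8834 stood below Gstm3 with PCN and above it in each of the other 3 groups.

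The ratio of raw counts within a library needs no scaling between libraries. For each 100 reads of Gstm3, Gm8834 had 9.97 ± 4.63 reads in PCN livers, 225 ± 137 in vehicle livers, 132 ± 36.5 in high-fat-diet livers and 256 ± 85.3 in chow livers (SD, n = 3 each). For each 100 reads of Gstm1, Gm8834 had 6.70 ± 0.534 reads in PCN livers, 4.01 ± 1.35 in vehicle livers, 3.81 ± 0.202 in high-fat-diet livers and 3.25 ± 0.514 in chow livers. Gm8834 thus kept a narrower ratio to Gstm1, its more distant relative, than to Gstm3: the highest of 12 libraries was 2.64-fold the lowest for Gstm1 and 53.9-fold for Gstm3.

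Gstm2-ps1 had 11.0 ± 1.58 reads for each 100 reads of Gstm1 in PCN livers, 5.67 ± 0.0352 in vehicle livers, 5.36 ± 0.224 in high-fat-diet livers and 4.73 ± 0.602 in chow livers (SD, n = 3 each). The 3 vehicle libraries gave 5.65, 5.64 and 5.71, although their Gstm1 counts were 6703, 7764 and 4345. Each PCN library lay above all others, at 11.6, 9.21 and 12.2. The PCN replicate with the lowest value, replicate 11, also had the fewest Gstm3 reads for each 100 of Gstm1, 39.8 against 91.1 and 101 in the other PCN libraries and 0.759 to 3.90 in all others.

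When the reads of Gstm1 and Gstm3 were summed, a denominator chosen after the values were seen, the ratios were nearly level across the groups. Gm8834 had 3.83 ± 0.456 reads for each 100 summed reads in PCN livers, 3.94 ± 1.35 in vehicle livers, 3.70 ± 0.223 in high-fat-diet livers and 3.20 ± 0.492 in chow livers (SD, n = 3 each). Gstm2-ps1 had 6.24 ± 0.301 in PCN livers, 5.55 ± 0.0719 in vehicle livers, 5.20 ± 0.214 in high-fat-diet livers and 4.66 ± 0.570 in chow livers. Over the 12 libraries the highest value was 2.06-fold the lowest for Gm8834 and 1.64-fold for Gstm2-ps1, while the ratio of Gstm3 to Gstm1 itself spanned 133-fold. Gstm2-ps1 in the PCN libraries (6.06 to 6.59) still lay above all other libraries (4.02 to 5.62), and Gm8834 in vehicle replicate 55 was the highest, at 5.49. How many of these reads came from the pseudogenes and how many from the Gstm genes was not tested, since the deposited files hold counts and not reads.

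**Figure D3:**
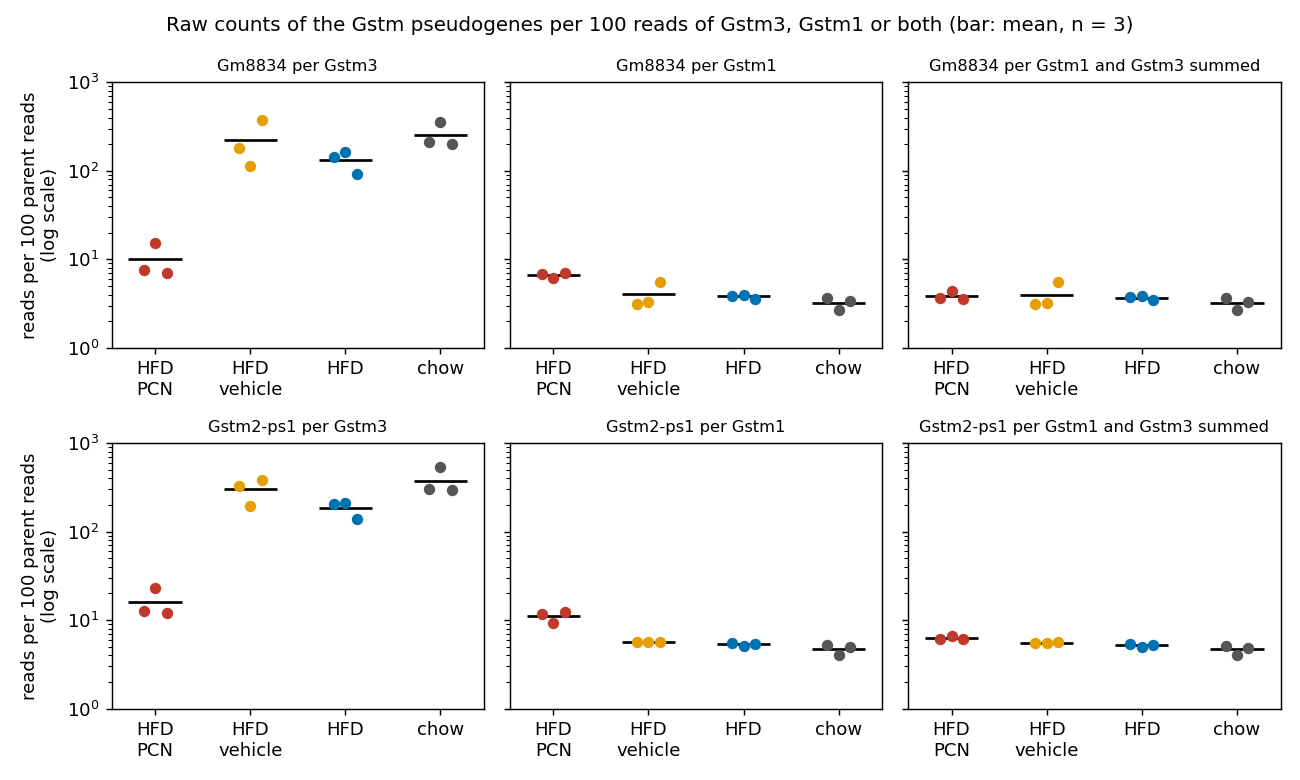
Reads of Gm8834 (top) and Gstm2-ps1 (bottom) per 100 reads of Gstm3, of Gstm1 and of both summed (log y axis), 1 point per library and a bar at the mean of 3, for the PCN, vehicle, high-fat-diet and chow groups. Against Gstm3 the PCN libraries lie far below the rest, and against the sum all 12 libraries lie between 2.67 and 5.49 for Gm8834 and between 4.02 and 6.59 for Gstm2-ps1.

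Gm7208 was a small share of Ces2a in every group. It had 0.206 ± 0.0293 reads for each 100 reads of Ces2a in PCN livers and 0.209 ± 0.0684 in chow livers (SD, n = 3 each). The shares were 0.0718 ± 0.0582 in vehicle livers and 0.205 ± 0.181 in high-fat-diet livers. The reads of Gm7208 behind these shares were 504 with PCN, 9 with vehicle, 21 with high-fat diet and 39 with chow, so that the shares outside PCN were imprecise. Each vehicle library (0.0315 to 0.139) lay below all PCN and chow libraries. Ces2a had 64747 ± 18952 normalized counts in PCN livers, 3389 ± 1281 in vehicle livers, 1890 ± 559 in high-fat-diet livers and 6612 ± 1089 in chow livers. The PCN and chow shares overlapped at Ces2a levels that differed 9.79-fold. Per kilobase of exon Gm7208 averaged 68.6 normalized counts and Ces2a 27447 in PCN livers. Whether the Gm7208 reads came from Ces2a transcripts was not tested.

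Cyp2c53-ps did not follow Cyp2c29, the gene whose span it overlaps, in PCN livers: the PCN mean was 0.242 times the chow mean for Cyp2c53-ps and 2.97 times for Cyp2c29. Without PCN both had lower means with high-fat diet than with chow, and the ratio of these means was 0.105 for Cyp2c53-ps and 0.467 for Cyp2c29. Over the 6 vehicle and high-fat-diet libraries their Pearson's r was 0.881 (321st of 10568 genes by likeness to Cyp2c53-ps, a description with no test). Cyp2c53-ps had 0.0348 ± 0.0201 reads for each 100 reads of Cyp2c29 in PCN livers, 0.220 ± 0.168 in vehicle livers, 0.0683 ± 0.0457 in high-fat-diet livers and 0.328 ± 0.109 in chow livers (SD, n = 3 each). Cyp2c29 itself had 178038, 40753 and 167786 normalized counts in PCN livers, against 47797, 35906 and 26692 in vehicle livers, so PCN replicate 11 lay within the range of the vehicle group. The Cyp2c29 levels in chow livers were 41604, 48707 and 40042. The chow and PCN shares did not overlap, and the PCN libraries held fewer Cyp2c53-ps reads for each Cyp2c29 read than any chow or vehicle library. Of the 16 measured Cyp2c genes 6 fell in high-fat diet against chow in the authors' deposited table and 0 rose. They were Cyp2c23, Cyp2c29, Cyp2c50, Cyp2c55, Cyp2c67 and Cyp2c68. The edgeR test on the listed counts kept 0 of those 6, and kept 1 family gene in all, Ces2a (0.439% of all genes).

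**Figure D4:**
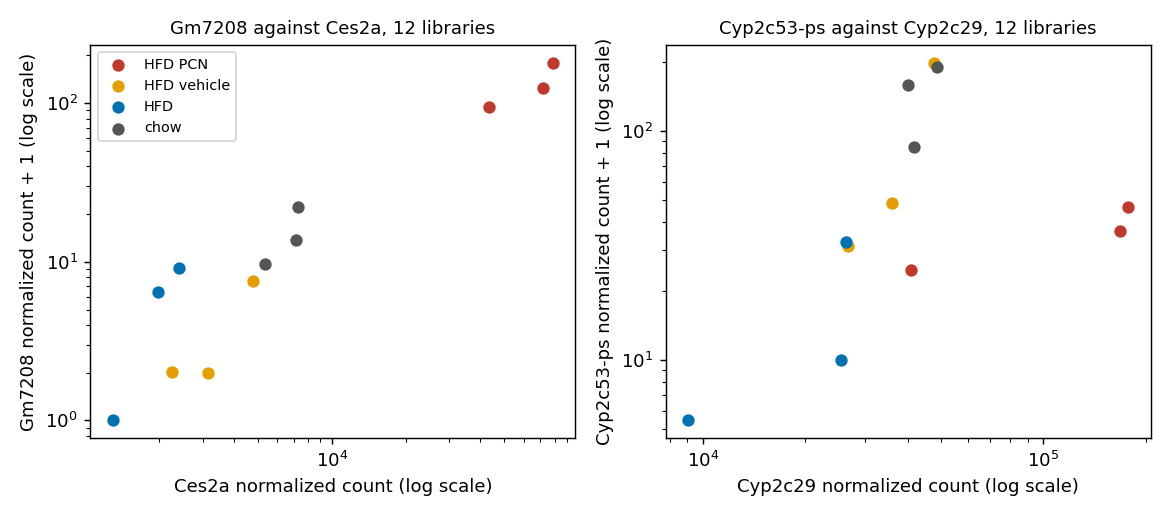
Normalized counts of Gm7208 plus 1 against Ces2a (left) and of Cyp2c53-ps plus 1 against Cyp2c29 (right) in the 12 libraries, both axes log, coloured by group. Gm7208 is highest where Ces2a is highest, while Cyp2c53-ps is at 23.6 to 45.3 in the PCN libraries that hold up to 178038 Cyp2c29 counts.

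Among about 1955 genes with counts in all 12 libraries and a mean of 50 or more, likeness was measured as Pearson's r of log2(normalized count + 1). These genes were listed because the authors called them in some comparison, and the libraries share groups and scaling, so r describes these 12 libraries and carries no test. Gm8834 was most like Gstm2-ps1 (0.993), Gstm3 (0.990) and Cyp3a59 (0.979), a cytochrome P450. Gstm2-ps1 was most like Gstm3 (0.995), Gm8834 (0.993) and Gstm1 (0.989). Gm7208 was most like Ces2a (0.945), the aldehyde dehydrogenase gene Aldh1a7 (0.932) and the ribosomal protein gene Rpl29 (0.930). Cyp2c53-ps was most like Cyp7b1 (0.949), which encodes an oxysterol hydroxylase, Serpina1c (0.906), an α1-antitrypsin gene, and Cyp2c23 (0.893). Its r with the other 3 pseudogenes lay between -0.28 and 0.26. Over the 6 vehicle and high-fat-diet libraries alone, among 10568 genes (10569 for Gm7208), the family genes ranked otherwise. There Gstm1 was 399th (0.871) and Gstm3 545th (0.840) by likeness to Gm8834, and Gstm1 was 2nd (0.997) and Gstm3 17th (0.984) by likeness to Gstm2-ps1. Ces2a was 2638th by likeness to Gm7208 (0.540), and Cyp2c54 was 40th by likeness to Cyp2c53-ps (0.963).

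The genes next to the pseudogenes gave a second view. Srrm4, a splicing regulator and the nearest gene below Gstm2-ps1 at 41091 bases, had 58.4, 80.9 and 85.3 normalized counts in PCN livers, against 180, 124 and 378 in vehicle livers. Its levels were 67.0, 142 and 95.4 in high-fat-diet livers and 87.4, 57.4 and 84.0 in chow livers, and both ranges overlapped that of PCN. The vehicle libraries were higher than all PCN and chow libraries and overlapped high-fat diet. Gm8834 lies 286978 bases from Frk, a tyrosine kinase gene that had 95.7 to 189 normalized counts in vehicle livers and 140 to 186 in high-fat-diet livers. Cyp2c66, the nearest gene below Cyp2c53-ps, had 0 reads in all 3 vehicle livers and 1 read in all in the high-fat-diet livers. Of 5 other pseudogenes of the same families in the complete table (Gm8798, Gm6831, Gm5743, Ces2d-ps and Cyp2c52-ps), the highest count in any of its 6 libraries was 16, and each was called in 0 tables.

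Vehicle against uninjected high-fat diet was the comparison not used to choose the members, although it shares its libraries with those that were. Choice by contrasts with these libraries can favour low values in them, so the p-values of the members, also for the ratios further below, are not free of that choice. Gm8834 had a log2 fold change of -0.90 (vehicle over high-fat diet, SE 0.16), with an adjusted p of 0.155 in edgeR's quasi-likelihood test. All 3 vehicle libraries (199 to 256 normalized counts) lay below all 3 high-fat-diet libraries (398 to 499). Gstm2-ps1 had a log2 fold change of -0.83 (SE 0.22) with an adjusted p of 0.246, and its groups did not overlap either. Full separation of 3 against 3 libraries has an exact two-sided permutation p of 0.10. How many of all genes separated in this way was not counted, so the separation is a description only. Cyp2c53-ps had a log2 fold change of 2.50 (SE 0.84) with an adjusted p of 0.321, and 1.28 without vehicle replicate 15. Gm7208 had too few reads for the expression filter. None of the 3 tested pseudogenes passed in edgeR, where 1 of 13775 genes did (0.00726%) and 1725 had an unadjusted p under 0.05, these 3 among them.

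The outcome rested on the test. By the authors' deposited table, 206 of 26015 genes (0.792%) were called in this comparison, 0.281% higher and 0.511% lower, and Gm8834 was among them, at a log2 change of -0.82 and an adjusted p of 0.00256. In that table Gstm2-ps1 had an adjusted p of 0.0973 and Cyp2c53-ps one of 0.0821. In edgeR without an expression filter, which called 1.09% of genes, the adjusted p was 0.00389 for Gm8834, 0.0187 for Gstm2-ps1 and 0.0179 for Cyp2c53-ps. The direction of each was the same in every one of these fits, which used the same libraries and counts and so could hardly differ in sign.

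Of the 23 family genes tested 0 passed in edgeR, and 14 had an unadjusted p under 0.05, as had 1725 of all 13775 genes. Gstm1 had a log2 fold change of -0.92 (SE 0.24), Gstm2 of -1.34 (SE 0.18) and Gstm3 of -1.43 (SE 0.47). Ces2a and Cyp2c29 had positive values of 0.84 (SE 0.30) and 0.86 (SE 0.40). Cyp2c54, at 2.53 (SE 0.76), was the family gene nearest to Cyp2c53-ps in size. In the authors' deposited table Gstm1, Gstm2 and Ces2e fell and 0 rose of 31. The median deposited log2 change was -0.11 over these 31 genes and 0.02 over all 26015.

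**Figure D5:**
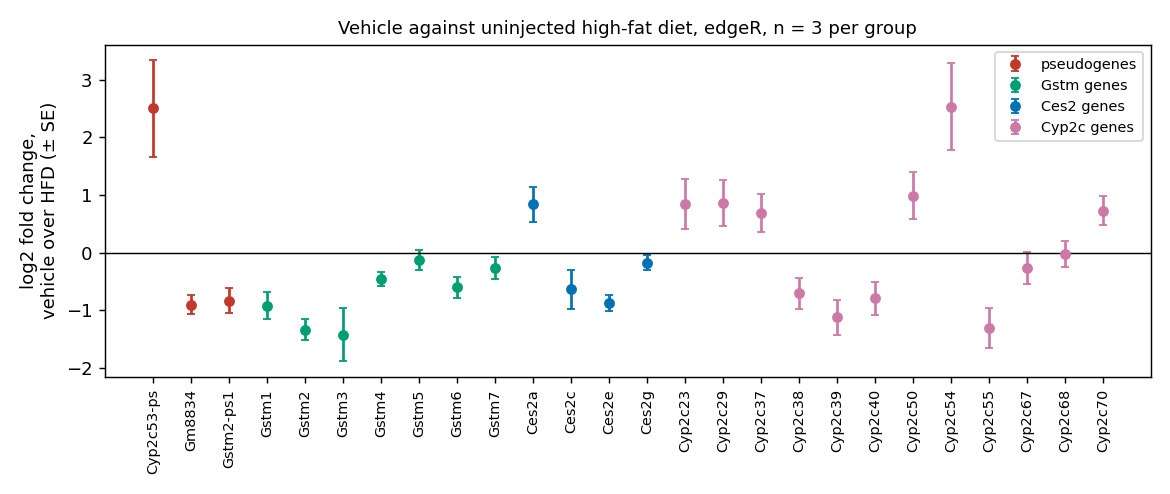
Log2 fold change of vehicle over uninjected high-fat diet (y axis, edgeR, points with ± SE, n = 3 per group) for 3 pseudogenes and 23 genes of the Gstm, Ces2 and Cyp2c families. Gm8834 and Gstm2-ps1 lie at -0.90 and -0.83 beside Gstm1 at -0.92, and Cyp2c53-ps lies at 2.50 beside Cyp2c54 at 2.53.

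Ratios to the family gene were tested between the same groups by exact two-sided permutation of 3 against 3 libraries, where the smallest p is 0.10. The log2 ratio of Gstm2-ps1 to Gstm1 differed by 0.08 (vehicle minus high-fat diet, exact p = 0.10, adjusted 0.525 over 7 ratios), and that of Gm8834 to Gstm1 by 0.03 (exact p = 1, adjusted 1). Against Gstm3 the log2 ratio differed by 0.63 for Gm8834 (exact p = 0.40, adjusted 0.56) and by 0.68 for Gstm2-ps1 (exact p = 0.30, adjusted 0.525). The log2 ratio of Cyp2c53-ps to Cyp2c29 differed by 1.64 (exact p = 0.20, adjusted 0.525). No ratio could pass at this size.

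The summed markers of stellate and endothelial cells did not overlap between these groups, and the sums of the other cell types listed overlapped. A sum follows its most abundant genes, and single markers were not compared. Full separation of 3 against 3 libraries has an exact two-sided permutation p of 0.10, so these sums are a description only. All 6 stellate cell markers were detected in every library, and their summed level was 5235 to 8790 normalized counts with vehicle and 9206 to 11746 with high-fat diet. All 6 endothelial markers were also detected, at 3732 to 5706 with vehicle and 5759 to 6443 with high-fat diet. Kupffer cell markers summed to 3545 to 5499 with vehicle and 4924 to 7999 with high-fat diet, cholangiocyte markers to 335 to 794 with vehicle and 350 to 948 with high-fat diet, and lymphocyte markers to 347 to 401 with vehicle and 339 to 648 with high-fat diet. Hepatocyte markers also overlapped, and the 3 adipose markers together had 0 to 3.97 normalized counts. The part of these differences in the values of the pseudogenes was not tested, and in bulk tissue fewer cells of a type and less RNA per cell cannot be told apart. The marker lists were not complete in the tables that held PCN and chow.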

How the data were processed

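RNA from 12 liver samples in 4 groups of 3 was sequenced. Per the submitters' processing notes, the authors used HISAT2, GRCm38/mm10, HTSeq and DESeq2; versions, settings, read length and strand are not given in the sources used here. Raw read counts per gene were deposited in 6 pairwise tables, with DESeq2 means, log2 fold changes and adjusted p-values per the file headers. Of these, 5 listed only genes with an adjusted p under 0.05, so the number of genes tested in them was estimated from the relation of deposited p to adjusted p. Depth was known for 6 libraries and is given with the results.

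Size factors were recovered by least squares from counts and deposited means (tables differed by at most 0.52%). The comparison of vehicle with uninjected high-fat diet was tested with edgeR 4.0.16 (quasi-likelihood, TMM, filterByExpr, Benjamini-Hochberg) and, as an alternative, DESeq2 1.42.0. For the other 5 comparisons the deposited call was used and the listed counts were tested again in edgeR with the trend of the complete table. Scripts were tested on simulated data. Transcripts of GENCODE M21 were compared with BLASTN 2.17.0 and MAFFT 7.526.

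The members and lists were chosen with earlier results of these data known. Named genes were the 4 members, the genes of 3 families, neighbours, and the 3 genes most alike each member. A base of 3 counts sets each floor, and floors and intervals cover counting error only. The labels do not say that each replicate is a separate animal, so p-values measure the spread between these samples.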

Additional observations from a re-analysis of the deposited data

How the results depend on the processing

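No paired analysis was possible because the replicate numbers differ between all groups. For vehicle against uninjected high-fat diet, edgeR called 1 gene, the same with DESeq2 size factors, 283 with no expression filter, 268 in a DESeq2 refit and 206 in the deposited table, and 0 to 9 without 1 library. Family genes called numbered 0, and 6 with no expression filter, 5 in the DESeq2 refit, where 2% of genes were called, 3 in the deposited table and 0 without 1 library. With no expression filter the log2 fold changes were -0.93 for Gm8834, -0.85 for Gstm2-ps1 and 2.47 for Cyp2c53-ps, each past the threshold. In the DESeq2 refit Gm8834 (-0.90, adjusted p = 0.00167) and Gstm2-ps1 (-0.83, adjusted p = 0.0454) passed, and in the deposited table Gm8834 (-0.82) passed. Without 1 library the log2 fold changes ran from -0.97 to -0.79 for Gm8834, from -1.02 to -0.65 for Gstm2-ps1 and from 1.28 to 3.57 for Cyp2c53-ps. Cyp2c68, at -0.03, ran from -0.27 to 0.14 without 1 library and was positive without high-fat-diet replicate 4, vehicle replicate 15 or vehicle replicate 55; the cause was not tested. On the listed counts edgeR called 4 family genes in PCN against vehicle, where the deposited tables called 11, 5 against 13 in PCN against high-fat diet, 9 against 15 in PCN against chow, 1 against 7 in vehicle against chow and 1 against 10 in high-fat diet against chow. Without 1 library, the ratio of group means ran from 34.7 to 132 for Gm7208 in PCN against vehicle, from 0.284 to 0.890 for Cyp2c53-ps in PCN against vehicle and from 1.71 to 5.20 for Cyp2c53-ps in PCN against high-fat diet. All 24 ratios of group means moved by less than the spread between replicates under scaling by summed counts. So did 141 of 144 ratios without 1 library, but leaving out 1 of 3 libraries can hardly move a mean past its own SD. That count is therefore no measure of stability. The sums were not library totals: for high-fat-diet replicate 4 the sum was 17643652 and the total 38161486. For PCN and chow libraries a sum can hold only genes listed because the authors called them. Few reads limit Gm7208 and Cyp2c53-ps, and high-fat-diet replicate 38 was the shallowest complete library.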
